A study of Homo sapiens with 2 samples.

Results

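Of the 4169 intervals called in a library from chromatin immunoprecipitation with sequencing (ChIP-seq) against sGCβ1, a subunit of soluble guanylate cyclase, 32 were assigned by the authors to genes of cytosolic ribosomal proteins. The members are the intervals whose deposited gene list names an RPL or RPS gene, RPLP0 to RPLP2 or RPSA, paralogues such as RPS27L included; kinases of the RPS6K family, mitochondrial ribosomal proteins and pseudogenes were left out. They cover 32 of the 83 protein-coding genes with such a symbol and make 33 pairs of a gene and an interval, because RPL27A has 2 intervals and 1 interval is listed for 2 of the genes. In 23 pairs the summit lay within 1000 bp of the gene's start in the deposited distances, and in 10 it lay farther away.

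The cells were U-87 MG, an established human glioma line, made to overexpress sGCβ1, and both libraries of the study, the ChIP library and an input made without antibody, came from them. The single interval list belongs to the ChIP library. With 1 ChIP library no value has a replicate error and no condition is compared. No source used here states how many reads were sequenced, so the depth of the library is unknown.

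The ribosome has a small (40S) subunit, which reads the messenger RNA, and a large (60S) subunit, which joins amino acids. Their proteins are made in near equal amounts in all growing cells, from short genes that are among the most strongly transcribed. Transcription of these genes typically starts at a C inside a run of pyrimidines, the terminal oligopyrimidine (TOP) sequence, through which the TOR kinase pathway controls their translation, and many host small nucleolar RNAs (snoRNAs) in their introns. Soluble guanylate cyclase, a nitric oxide receptor, makes cyclic GMP in the cytosol.

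The sequences below show what kind of start the intervals lie on. Each runs 5′ to 3′ on the transcribed strand of hg19 from 20 bases before the first base of the gene's canonical transcript to 15 bases after it; capitals mark the unbroken pyrimidine run that covers that first base, where it has at least 5 bases.
RPS16, chr19:39926574-39926609, minus strand: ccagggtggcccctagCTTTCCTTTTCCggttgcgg
RPS29, chr14:50053083-50053118, minus strand: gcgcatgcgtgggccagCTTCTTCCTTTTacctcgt
RPS13, chr11:17099199-17099234, minus strand: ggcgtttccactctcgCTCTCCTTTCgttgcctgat
RPL27A, chr11:8704319-8704354, plus strand: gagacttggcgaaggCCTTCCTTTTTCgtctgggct
RPL13A, chr19:49990845-49990880, plus strand: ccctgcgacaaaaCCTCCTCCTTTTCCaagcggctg
RPL23, chr17:37009959-37009994, minus strand: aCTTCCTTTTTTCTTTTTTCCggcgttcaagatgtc
RPS28, chr19:8386360-8386395, plus strand: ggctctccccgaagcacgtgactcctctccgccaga
RPL19, chr17:37356516-37356551, plus strand: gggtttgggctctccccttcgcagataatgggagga

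The runs were 12 bases long at RPS16, 10 at RPS13, 14 at RPL13A and 20 at RPL23. None covered the annotated start of RPS28 or RPL19, although pyrimidines lie directly after the first base of RPS28 and directly before that of RPL19. A run of at least 5 bases was found at 62 of the 83 ribosomal protein genes (74.7%) and at 7.86% of 20136 protein-coding genes. Ribosomal protein genes with an interval at the start had such a run in 18 of 23 cases and the other ribosomal protein genes in 44 of 60. The runs were thus present at starts with and without an interval.

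Ribosomal protein genes carried an interval at the start in a larger share than protein-coding genes at large. An interval within 1000 bp of the start was assigned to 23 of 83 (27.7%, exact 95% binomial interval 18.4 to 38.6), against a background of 6.85% of all protein-coding genes (1379 of 20136), a ratio of 4.05. Any interval was assigned to 32 of 83 (38.6%, 28.1 to 49.9), against 15.3%. The binomial intervals cover counting error over genes in 1 library only.

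The share was higher among genes with CpG-rich starts in all protein-coding genes, and most ribosomal protein genes have such starts. A start was taken as CpG-rich where it and the 250 bp on either side had at least 55% G and C and an observed-to-expected CpG ratio of at least 0.75. Among CpG-rich starts, 21 of 67 ribosomal protein genes (31.3%, 20.6 to 43.8) had an interval, against 9.53% of all protein-coding genes with such a start, a ratio of 3.29. At the other starts it was 2 of 16 ribosomal protein genes, RPS27 and RPS27A, against 3.93%.

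Both subunits were represented. Of 34 small-subunit genes 11 (32.4%, 17.4 to 50.5) had an interval at the start, and of 49 large-subunit genes 12 (24.5%, 13.3 to 38.9). Of 29 genes that hold a snoRNA gene 10 (34.5%, 17.9 to 54.3) had one, and of the 54 others 13 (24.1%, 13.5 to 37.6). In both pairs the binomial intervals overlapped. Among genes of related function, 14 of 78 mitochondrial ribosomal protein genes (17.9%, 10.2 to 28.3) and 13 of 71 genes of translation initiation and elongation factors (18.3%, 10.1 to 29.3) had an interval at the start; these binomial intervals overlapped that of the cytosolic genes.

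**Figure D1:**
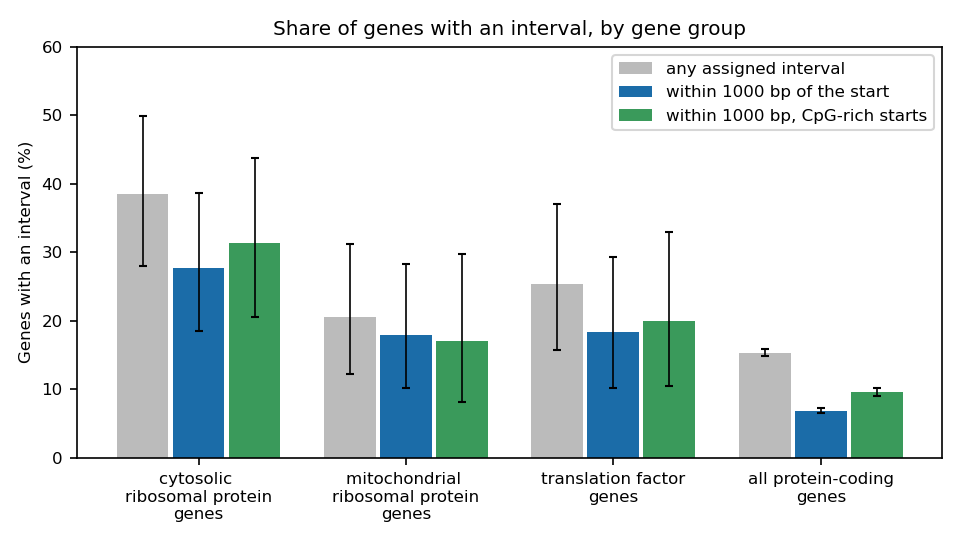
Share of genes with an interval (y axis, percent) in 4 gene groups, for any assigned interval, for an interval within 1000 bp of the start, and for the latter among CpG-rich starts. Bars are shares and error bars exact 95% binomial intervals; cytosolic ribosomal protein genes stand at 38.6, 27.7 and 31.3%, all protein-coding genes at 15.3, 6.85 and 9.53%.

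Although frequent, the intervals at ribosomal protein starts were mostly low. Height is the highest fragment density inside an interval, as the authors give it. Of the 23, 21 had heights from 11 to 19, and the remaining ones, at RPS16 and RPS29, reached 146 and 75. The median was 15, beside 16 for the 1204 intervals within 1000 bp of the start of any protein-coding gene, which ran from 9 to 263. A height of 40 or more was reached at 2 of the 23 (8.70%) and in 15.3% of all start intervals; counted over genes it was 2 of 83 (2.41%, 0.293 to 8.43), against a background of 1.04%. The score, 10 times the negative log10 of the p-value from MACS, was between 72.0 and 192 in the 21 lower intervals, where the list begins at 70.

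The ratio of 4.05 thus counted 21 intervals with a height of 19 or lower among 23, where 67.8% of all start intervals were as low. When the list was limited to scores at or above its upper quartile, 5 ribosomal protein genes had an interval at the start, RPL13, RPL19, RPS16, RPS29 and RPSA, or 6.02% against 2.31% of all genes. At or above the median score it was 15 genes (18.1% against 4.04%), and at or above the median height 13 genes (15.7% against 5.03%).

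**Figure D2:**
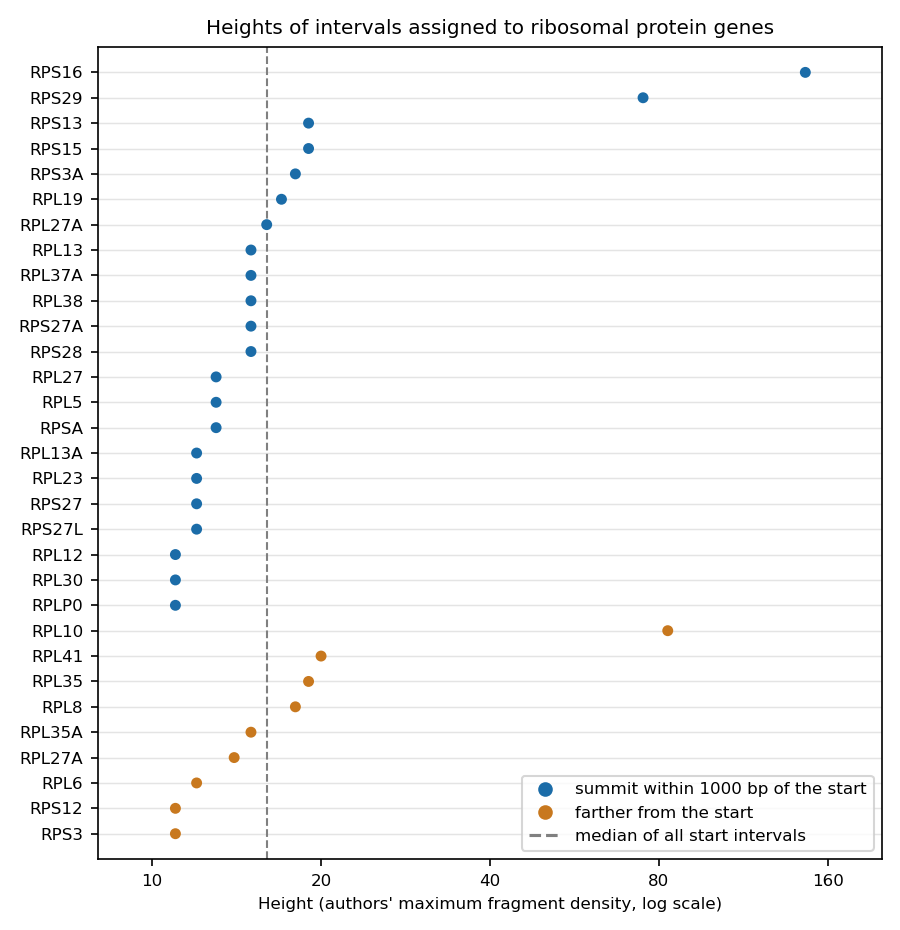
Height of 31 of the 33 gene and interval pairs (x axis, authors' maximum fragment density, log scale), with the gene on the y axis. Blue points have the summit within 1000 bp of the start and orange points farther away; the dashed line is the median of all start intervals, 16, and only RPS16 (146), RPL10 (83) and RPS29 (75) stand above 20.

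**Figure D3:**
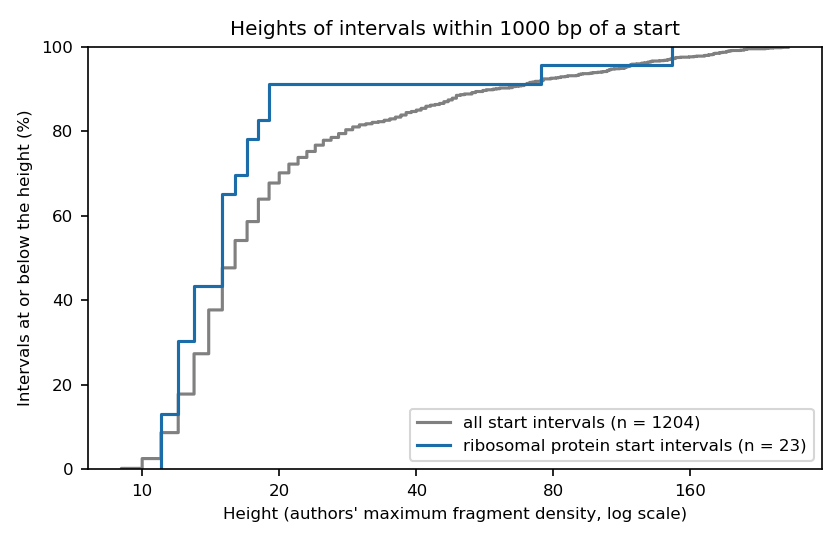
Cumulative share of intervals (y axis, percent) at or below a height (x axis, authors' maximum fragment density, log scale), for the 23 start intervals of ribosomal protein genes and all 1204 start intervals. The ribosomal line reaches 21 of 23 at a height of 19, where the line of all start intervals stands at 67.8%.

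RPS16 carried the tallest interval of the group. Its protein sits in the head of the small subunit, where its tail touches the transfer RNA in the P site. The interval spanned chromosome 19 from 39925862 to 39927420 (hg19), overlapped 1 CpG island, and had a height of 146, a mean density of 32.0 and a score of 1249. It ranked 51 by height in the whole list and above 97.2% of start intervals. The summit, at 39926656, lay 38 bp upstream of the deposited start and 67 bp upstream of the canonical one, and the nearest coding start was that of RPS16 itself. No other gene's start within 1000 bp was assigned to it; for PLEKHG2 and SUPT5H, also listed, the deposited distances were 22906 and -9530 bp.

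The second tall interval covered the starts of RPS29 and of a gene that another polymerase transcribes. RPS29 encodes a small zinc-binding protein of the 40S head. On chromosome 14, its interval (50052308 to 50054150) reached a height of 75 and a score of 1568, with the summit upstream of RPS29 at -506 bp. The same summit was 302 bp from the start of RN7SL1, just downstream of it, the gene of the 7SL RNA of the signal recognition particle, which RNA polymerase III transcribes. At RN7SL2, the other 7SL gene in the list, the interval at the start (-1 bp) had a height of 99 and a second one 8991 bp away had 76. The GC content in 200 bp around the RPS29 summit was 40.5%, against a median of 60.5% over the 23. Whether fragments at RPS29 belong to RPS29 or to RN7SL1 cannot be told apart from the interval list.

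Of the small-subunit genes, 9 others had low intervals at the start, 8 of which are described. RPS13 and RPS15 both had a height of 19. The RPS15 protein, near the decoding centre, is altered in some leukaemias. RPS3A, on chromosome 4, followed with 18, its summit 14 bp inside the deposited start. These 3 lay above the median of 16 for all start intervals.

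The remaining small-subunit intervals were lower. RPS28 had 15, with the start of NDUFA7, a subunit of respiratory complex I, at -40 bp from the same summit. RPS27A, which encodes a ribosomal protein fused to ubiquitin, had 15, and the start of C2orf63, now CLHC1, was 67 bp away. RPSA, known also as the laminin receptor precursor, had 13, RPS27 had 12, and RPS27L, a p53-induced paralogue of RPS27, had 12. All 5 were under the median of all start intervals. For RPS27A the deposited distance of 593 bp and the -192 bp from the canonical start differ because they refer to different annotated starts.

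The 12 large-subunit genes with an interval at the start had heights from 11 to 17. RPL19 led with 17 (chromosome 17, 37355816 to 37357334, summit at -88 bp) and RPL27A followed with 16 (chromosome 11, 8703279 to 8705190, summit at -123 bp), where the nearest annotated coding start was that of TRIM66, 307 bp away. RPL13, RPL37A and RPL38 each had 15. RPL38, best known from mouse, where its loss disturbs the translation of Hox messenger RNAs, had its summit at -19 bp. RPL13 had the longest interval of the 23, at 2330 bp, and with 192 the highest score after RPS29 and RPS16.

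The other 7 large-subunit genes had heights from 11 to 13. RPL5, which binds the 5S RNA and, free of the ribosome, restrains the p53 ubiquitin ligase MDM2, had 13 with the summit 102 bp inside the gene. RPL23, another binder of MDM2, had 12 at -11 bp. RPL13A, which can leave the ribosome to repress inflammatory messenger RNAs, had 12 at 47 bp, and RPL27 had 13 at -126 bp. Lowest at 11 were RPL12 and RPLP0, proteins of the stalk that recruits elongation factors, and RPL30. Their summits, at -684, -498 and -515 bp, were among the most distant of the 23. That of RPL12 lay 603 bp inside LRSAM1 in the deposited distances. The annotated coding start nearest to this summit was also that of LRSAM1, 158 bp away.

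The limit of 1000 bp chose these summits, so their closeness to the start is no finding. In deposited distances 15 of 23 lay upstream and 8 inside the gene, with a median of -38 bp and a range from -684 (RPL12) to 593 bp (RPS27A). From the canonical transcript start 17 were upstream, 10 lay within 100 bp and 19 within 500 bp. Every one of the 23 intervals spanned the canonical start, with median ends at -720 and 631 bp. None of the summits was in an exon of the canonical transcript: 6 were in intron 1 (RPS15, RPL37A, RPL5, RPSA, RPL13A and RPS27L) and 17 outside the transcript. Most summits in the list (92.5%) stand on multiples of 16 bp, so shorter distances carry little meaning.

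**Figure D4:**
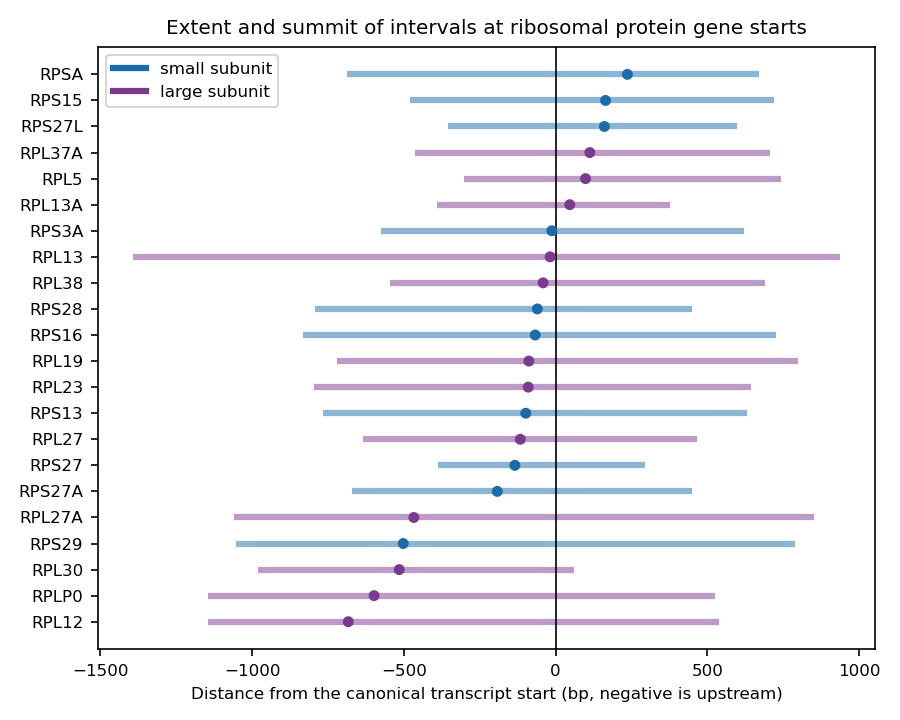
Extent (bars) and summit (points) of 22 of the 23 start intervals relative to the canonical transcript start (x axis, bp, negative is upstream), one gene per line, coloured by ribosomal subunit. All bars cross the start, and most summits lie upstream of it, from -683 bp at RPL12 to -12 bp at RPS3A.

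The authors counted a CpG island in 22 of these 23 intervals, the exception being RPS27A; among all 1204 start intervals it was 93.4%. The start of another protein-coding gene was assigned within 1000 bp in 3 of 23, at RPS27A, RPS28 and RPL12. Without intervals shared in this way, 20 of the 23 ribosomal protein genes kept one at the start, beside 1028 of the 1379 protein-coding genes. Median GC content in 200 bp around the summit was 60.5% and ranged from 40.5% at RPS29 to 73.5% at RPSA.

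The 10 assignments beyond 1000 bp mostly described other genes' starts. Nearest outside the limit were RPL41 at 1562 bp and RPS12 at 1860 bp, and nearest inside were RPL12 at -684 bp and RPS27A at 593 bp. In 6 of the 10 the coding start nearest to the summit belonged to another gene and was within 1000 bp.

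The tallest was listed for RPL10, an essential protein of the tRNA-binding face of the 60S subunit. The RPL10 interval (chromosome X, 153639221 to 153640521) reached 83 with a summit 13189 bp from the RPL10 start, but at -117 bp from TAZ, now TAFAZZIN, which remodels cardiolipin. RPL41 (20) shared its interval with ZC3H10 (-94 bp), and RPL35 (19) with ARPC5L (-284 bp), a subunit of the actin-nucleating Arp2/3 complex. RPL8 (18) was listed with ZNF34 (-203 bp), and RPL35A (15) with IQCG (6 bp) and LMLN (-191 bp). These heights therefore are not those of the ribosomal protein starts.

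A further 4 distant assignments were of several kinds. RPL6 (height 12) was listed at -9213 bp and PTPN11, a tyrosine phosphatase gene, at 120 bp from the same summit; the annotation also holds a coding transcript of RPL6 that starts 14 bp from it. The second RPL27A interval (14) had its summit 6277 bp from the deposited start, in exon 5 of the canonical transcript of the annotation used here. The RPS12 interval (11) lay in intron 3 of its gene, where the list also names SNORD100 and SNORA33, at -373 and -790 bp. For RPS3, whose protein also acts in DNA repair, the interval (11) was 8478 bp from the start and downstream of the deposited gene, with no promoter counted in it.

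No interval was assigned to 51 of the 83 genes. They include RPS6, the substrate of S6 kinase, RPS19, the gene most often mutated in Diamond-Blackfan anaemia, RPL11, the partner of RPL5 at MDM2, RPL3, at the peptidyl transferase centre, and the stalk genes RPLP1 and RPLP2. The nearest summit was 12097 bp or more from their starts, with a median of 231320 bp. The authors' assignment listed genes with a summit up to 14563 bp upstream of their start, and farther where the summit lay downstream. That none was closer therefore depends on this assignment and is no separate finding. Genes with and without an interval at the start had like GC content (medians of 61.3% and 60.6%) and CpG ratio (0.826 and 0.848), and median lengths of 5019 and 5652 bp.

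Ribosomal protein genes lie scattered over the genome, and so did the intervals at their starts. Chromosome 19, with 12 such genes, had 5 with an interval at the start, against 6.62% of its protein-coding genes. Chromosome 17 had 4 of 6, against 5.38%, and chromosome 3 had 1 of 8 (RPSA), against 6.93%. On chromosome X it was 0 of 4, on a chromosome where 1.61% of genes had one.

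Short sequence words around the summits were compared with those of all start intervals, in 200 bp and on both strands. The ETS core CGGAAG was found in 8 of 23 ribosomal protein start intervals (34.8%), beside 20.5% of all 1204, and the longer CCGGAAG, which contains it, in 1 (RPS3A), beside 10.6%. The Sp1 box GGGCGG was in 11 (47.8%, beside 40.5%). The E-box CACGTG was in 3, at RPS28, RPSA and RPL23 (13.0%, beside 14.5%). Shares of the remaining words lay closer together or rested on 5 or fewer intervals. TGACG was in 5 (21.7%, beside 26.6%) and the longer TGACGTC in 2 (8.70%, beside 3.41%). The NF-Y word CCAAT was in 3 (13.0%, beside 17.9%) and TATAAA in 1 (4.35%, beside 3.57%). The YY1 word AAGATGG was in 2 (8.70%, beside 5.15%) and the NRF1 word GCATGCG in 0, beside 1.74%.

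A further 5 words were taken from earlier results of these data. CGTCGC was in 5 of 23 (21.7%, beside 15.4%), CGCGAC in 3 (13.0%, beside 13.3%), ACGTGA, which overlaps the E-box, in 4 (17.4%, beside 15.2%), CGTGAC in 4 (17.4%, beside 16.8%) and GAGTCA in 3 (13.0%, beside 9.63%). Each interval is 4.35% of the 23, so these differences amount to at most 2 intervals each.

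In windows from 250 bases before to 50 bases after the canonical start, CGGAAG was in 16 of the 23 genes with an interval at the start (69.6%) and 33 of the 60 without (55.0%), beside 25.3% of all protein-coding genes. CACGTG was in 4 of 23 (17.4%) and 1 of 60 (1.67%), beside 8.75%, and ACGTGA in 6 (26.1%) and 3 of 60, beside 8.21%. TGACGTC was in 4 of 23 (17.4%) and 4 of 60 (6.67%), beside 4.57%, and CGTAAA, a word picked from tall intervals of this list, in 5 (21.7%) and 5 (8.33%), beside 3.21%. These 5 words were found in larger shares of the genes with an interval at the start than of those without. The counts were 4 to 6 genes for all but the ETS core. That direction does not set the 5 apart from most other words searched. TGACG, for example, was in 13 of 23 and 24 of 60, and GGGCGG in 69.6% and 56.7%. Smaller shares were found only for CCGGAAG (30.4% and 35.0%) and GAGTCA (4.35% and 8.33%). No test was made of these differences.

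The tallest interval of the group held a word that recurred in tall start intervals. CGTAAA, chosen after comparing tall and low start intervals of this list, was within 100 bp of the summit in 66 of 184 start intervals with a height of 40 or more (35.9%) and in 36 of 816 with a height under 20 (4.41%). Among ribosomal protein start intervals it was in 3 of 23 (13.0%), beside 9.80% of all 1204 start intervals. It was near the summits of RPS16, RPS27A and RPL23, whose heights were 146, 15 and 12. The promoters of RPS16 and RPL23, from 150 bases before to 15 bases after the canonical start on the transcribed strand of hg19, show the word in capitals, its first base at -82 and -138 from the start.
RPS16, chr19:39926574-39926739, minus strand: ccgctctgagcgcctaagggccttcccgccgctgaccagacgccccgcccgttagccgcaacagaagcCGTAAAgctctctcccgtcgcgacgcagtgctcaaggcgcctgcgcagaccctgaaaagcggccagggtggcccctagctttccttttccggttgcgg
RPL23, chr17:37009959-37010124, minus strand: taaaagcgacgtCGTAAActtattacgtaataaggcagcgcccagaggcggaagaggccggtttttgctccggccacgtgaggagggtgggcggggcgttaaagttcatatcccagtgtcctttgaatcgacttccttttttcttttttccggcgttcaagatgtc
The word was thus present at a tall and at low ribosomal protein starts. It is a description of letters in a window and does not show what bound there, and because heights chose it, its share in tall intervals is no independent result. In the other tall start interval, at RPS29, none of the 16 words searched lay within 100 bp of the summit. That summit is 502 bp upstream of the canonical start, so this window did not reach the start. The sequence at the RPS29 start, given above, holds the NRF1 word GCATGCG.

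A part of the RPS28 promoter shows its E-box, in capitals, directly before the start. Pyrimidines (ctcctctcc) follow directly after the first base of the transcript. The sequence covers the same 150 bases before and 15 after.
RPS28, chr19:8386230-8386395, plus strand: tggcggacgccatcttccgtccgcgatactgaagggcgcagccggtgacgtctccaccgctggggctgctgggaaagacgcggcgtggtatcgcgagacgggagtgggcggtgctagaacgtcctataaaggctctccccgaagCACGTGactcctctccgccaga
The first base of the E-box is at -6 and the deposited summit at -64 bp, on an interval with a height of 15.

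Heights of the compared groups were given by their tallest starts. Among the 14 mitochondrial ribosomal protein genes with an interval at the start, MRPL15 and MRPS16 reached 37 and MRPS18A 25, and the median was 14. Among the 13 translation factor genes, EIF3D, a subunit of initiation factor 3, reached 186, EIF3K 82 and EEF1G 66, and the median was 18. The cytosolic ribosomal protein median of 15 lay between them. Of the ribosomal proteins whose symbols the rule does not match, RPL36AL had an interval at 197 bp with a height of 12. RACK1 had one of 11 at 8117 bp, and FAU, RPL22L1, RPL26L1 and RPL7L1 had 0.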

How the data were processed

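ChIP-seq was done on 1 ChIP and 1 input library; only the interval list of the ChIP library was used. Per the series' design text, 75-nt reads were aligned to hg19 with BWA, kept with at most 2 mismatches and a unique position, and intervals were called with MACS. No source used here gives versions or says whether the input served as control. Peak values (called height) and average values are the authors' density signal; the deposited score is 10 times the negative log10 of the p-value from MACS. Numbers of CpG islands and promoters are as deposited.

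Symbols of the list were matched to GENCODE 44 on GRCh37, the same build, directly or through older symbols on the same chromosome within 100000 bp: 3091 of 3677 matched a protein-coding gene. Members were set by symbol, and the deposited distances placed them. The canonical start is that of the annotation's canonical transcript. Shares have exact Clopper-Pearson 95% intervals (scipy 1.17.1), covering counting error only; no test was run. Counting of assigned and start intervals was tested on simulated data. The members, gene lists and words were chosen with earlier results of these data known. Genes named are those with an interval at the start, the distant assignments, and the 3 tallest starts of each compared group; other names were chosen after their values were seen. Values of a few single genes are not reported here; counts and medians include all members.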

Additional observations from a re-analysis of the deposited data

How the results depend on the processing

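The number of ribosomal protein genes with an interval at the start, 23, was within 1.5 times under windows of 500 and 5000 bp (19 and 26), with any annotated coding start (24, adding RPL6), with overlap in place of the summit (23), and without intervals shared with another coding start (20). It was 15 in the part of the list with scores from the median up, 5 with scores from the upper quartile up and 13 where the height reached the list's median; genes with any interval, 32, numbered 18, 8 and 18 in these subsets, and 27 by overlap with the gene. Fewer intervals enter them by construction, and the ratio to all genes at the start was 4.48, 2.61 and 3.12, compared with 4.05. The ratio was 3.95 and 3.68 with the other windows. The median height relative to all start intervals, 0.938, was 0.894 by average value, 1.03 by score and 0.938 without shared intervals. Added after the data were seen were CpG-rich starts only (ratio 3.29), leaving out RPS16 and RPS29 (relative median 0.938) and a 400 bp window for CGGAAG (52.2%, beside 37.9% of all start intervals). No paired analysis was possible because there is 1 ChIP library. Depth is unknown, so a gene with 0 intervals had none called in this library.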
